A study of Mus musculus with 4 samples.

Results

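The output arm of the circadian clock was followed in mouse liver through 7 transcription factor genes, Dbp, Tef, Hlf, Nfil3, Ciart, Bhlhe40 and Bhlhe41, which were taken by name out of 19505 genes that had a probe set with 1 symbol. All 7 genes had exactly 1 such probe set, so no choice between probe sets was needed. Control liver and Mcu knockdown liver were each profiled at 0 h and at 30 h after partial hepatectomy, the removal of 70% of the liver, which gives 4 groups of 1 microarray with pooled liver RNA. Mcu encodes the pore of the mitochondrial calcium uniporter. Per the labels, male C57BL6J mice with loxP-flanked Mcu, aged 10 to 12 weeks, received AAV8-TBG-Cre (knockdown) or, as littermate controls, AAV8-TBG-Null, 5 weeks before surgery. The TBG promoter is active in hepatocytes, so the virus directs Cre to those cells. The series text gives pools of 4 animals per genotype. On the control arrays the genotype is given as Wild type. The label of the 0 h groups calls them controls, and no group had surgery without removal of liver. The question was what hepatocyte Mcu does in the regenerating liver.

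In the clock of liver cells, the activators CLOCK and BMAL1 bind E-box DNA and switch on their own repressors, the period and cryptochrome genes, as well as output genes that carry the rhythm to metabolism. DBP, TEF and HLF, the PAR bZIP factors, bind a DNA element named the D-box and activate genes of detoxification and lipid metabolism, while NFIL3 (also called E4BP4) binds the same element and represses. CIART (CHRONO), BHLHE40 (DEC1) and BHLHE41 (DEC2) are themselves repressors of CLOCK and BMAL1. In mouse liver Dbp and Ciart are among the strongly rhythmic transcripts, so their level at a single time depends on the hour of sampling. The clock hour at which the livers were taken is not given in the sources used here. A span of 30 h is 24 h and a further 6 h, and time since surgery and hour of the day cannot be told apart in these arrays.

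The stretches of 250 bases before the annotated start site are printed for the 4 genes on which the results turn, Ciart and Dbp, which differed most with time, Nfil3, which was lower at 30 h in both genotypes, and Bhlhe41, whose responses opposed each other by the most. They are from RefSeq on GRCm38.p6, 5′ to 3′ on the strand of the gene. Capitals mark matches to the E-box CACGTG, to the ROR element TAGGTCA (in Nfil3 on the opposite strand, so that it reads TGACCTA) or to the other motifs searched. The Ciart stretch is chr3:95882229-95882478 on the minus strand, the Dbp stretch chr7:45704997-45705246 on the plus strand, the Nfil3 stretch chr13:52981040-52981289 on the minus strand and the Bhlhe41 stretch chr6:145865421-145865670 on the minus strand.
Ciart: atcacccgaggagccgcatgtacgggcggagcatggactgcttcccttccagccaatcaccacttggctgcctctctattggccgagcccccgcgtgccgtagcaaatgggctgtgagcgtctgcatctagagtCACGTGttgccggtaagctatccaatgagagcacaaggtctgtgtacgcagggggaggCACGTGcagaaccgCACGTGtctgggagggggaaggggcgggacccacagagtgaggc
Dbp: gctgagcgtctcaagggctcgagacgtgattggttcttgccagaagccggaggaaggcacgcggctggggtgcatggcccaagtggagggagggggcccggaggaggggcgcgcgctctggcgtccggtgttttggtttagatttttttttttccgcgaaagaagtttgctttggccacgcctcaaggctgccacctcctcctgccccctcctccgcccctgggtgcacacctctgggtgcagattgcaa
Nfil3: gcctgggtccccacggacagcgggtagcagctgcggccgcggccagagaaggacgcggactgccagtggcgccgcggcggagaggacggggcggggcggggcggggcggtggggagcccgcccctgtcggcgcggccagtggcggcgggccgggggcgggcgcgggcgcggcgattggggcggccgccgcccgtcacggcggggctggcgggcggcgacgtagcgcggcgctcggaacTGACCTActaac
Bhlhe41: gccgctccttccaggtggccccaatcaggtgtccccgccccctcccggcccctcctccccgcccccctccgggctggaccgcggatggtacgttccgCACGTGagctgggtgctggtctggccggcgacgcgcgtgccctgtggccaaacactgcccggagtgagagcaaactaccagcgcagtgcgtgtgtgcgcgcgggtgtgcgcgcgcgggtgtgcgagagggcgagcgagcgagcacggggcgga

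Ciart carried 3 matches to CACGTG in its 250 bases, starting 116, 58 and 44 bases before the start site. Bhlhe41 carried 1 match, 153 bases before its start site. Tef carried 1 match before each of its 2 annotated start sites, 127 and 138 bases away (chr15:81802423-81802672 and chr15:81811164-81811413, plus strand). CACGTG was present in 6.02% of all 32851 such stretches in the table, and 3 or more matches were present in 0.0609%, or 20 stretches. The ROR element TAGGTCA, the site of the ROR activators and REV-ERB repressors, was matched 12 bases before the Nfil3 start and occurs in 2.23% of all stretches. The cyclic AMP response element TGACGTCA was matched 9 bases before the Hlf start and occurs in 1.55%. Both strands were searched, and the E-box and the cyclic AMP element read the same on either strand. The E-prime box CACGTT (3.85% of all stretches), the G form of the ROR element TGGGTCA (3.24%) and the D-box TTANGTAA (2.06%) had no match before these genes, and none of the 6 motifs matched in the Dbp stretch, which says only that these letters are not in that window. A match is a description of the sequence. RefSeq stretches were matched for 6 of the 7 genes, Bhlhe40 being the other one.

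**Figure D1:**
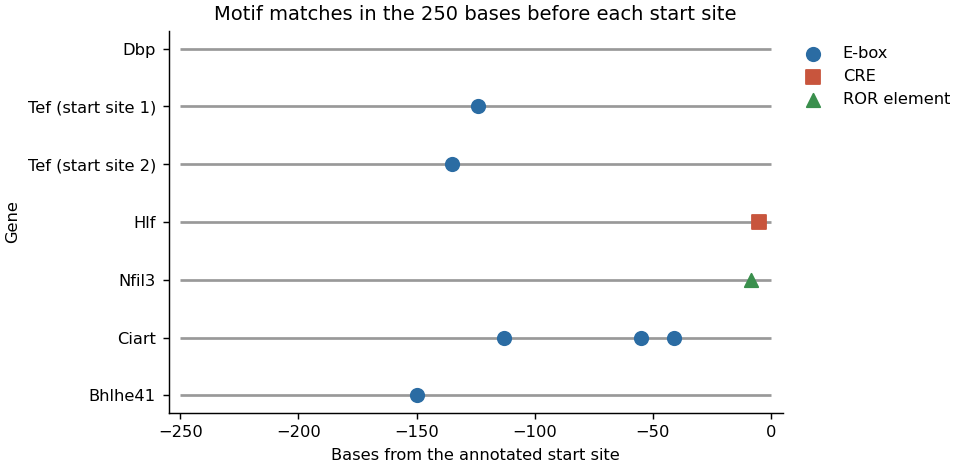
Matches to the E-box, the cyclic AMP response element (CRE) and the ROR element in the 250 bases before each annotated start site, with the distance from the start site in bases on the horizontal axis and 1 line per start site. Ciart has 3 E-boxes, both start sites of Tef and that of Bhlhe41 have 1, and Dbp has no match.

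Levels are log2 values from RMA, the authors' summary of the probes of each gene, and a difference of 1 is a 2-fold difference. With 1 array per group no value has a replicate error, no difference has a replicate check and no p-value is given. Genes are described as 2-fold different where the log2 difference reached 1, and as bright where their mean level reached that of the median gene, 3.83. Of the 7 genes, 5 were bright, and Ciart (mean 3.73) and Bhlhe41 (mean 3.45) were dim. Values of dim genes carry more noise, and their folds can be understated or, through noise, overstated. Across probe sets, correlations between arrays ran from 0.953 to 0.974. All 7 hepatocyte markers, Alb, Apoa1, Ttr, Apob, Cps1, Hnf4a and Fga, were at or above percentile 95.7 of mean level. Mcu read 4.77 and 4.30 in control liver at 0 h and 30 h against 2.83 and 2.63 in the knockdown, lower on both knockdown arrays. The sample descriptions mention ethanol-fed liver, which no other label does, and for the knockdown array titled 30 h the description states a time of 1 h. In bulk liver, fewer cells of a type and less RNA per cell cannot be told apart.

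In control liver, Ciart, Dbp and Bhlhe41 were at least 2-fold higher at 30 h than at 0 h and none of the 7 genes was 2-fold lower, though Nfil3 came close. This was 3 of 7 genes, while 6.41% of all 19505 genes were at least 2-fold different either way in that comparison (4.19% higher and 2.22% lower). In knockdown liver Ciart and Dbp were again at least 2-fold higher, 2 of 7 genes, against 4.73% of all genes either way, 2.72% higher and 2.01% lower. The median of the 7 genes was 0.51 in control liver, where the median of all genes was -0.01, and 0.41 in knockdown liver, where it was 0.01. Control and knockdown responses share no array.

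**Figure D2:**
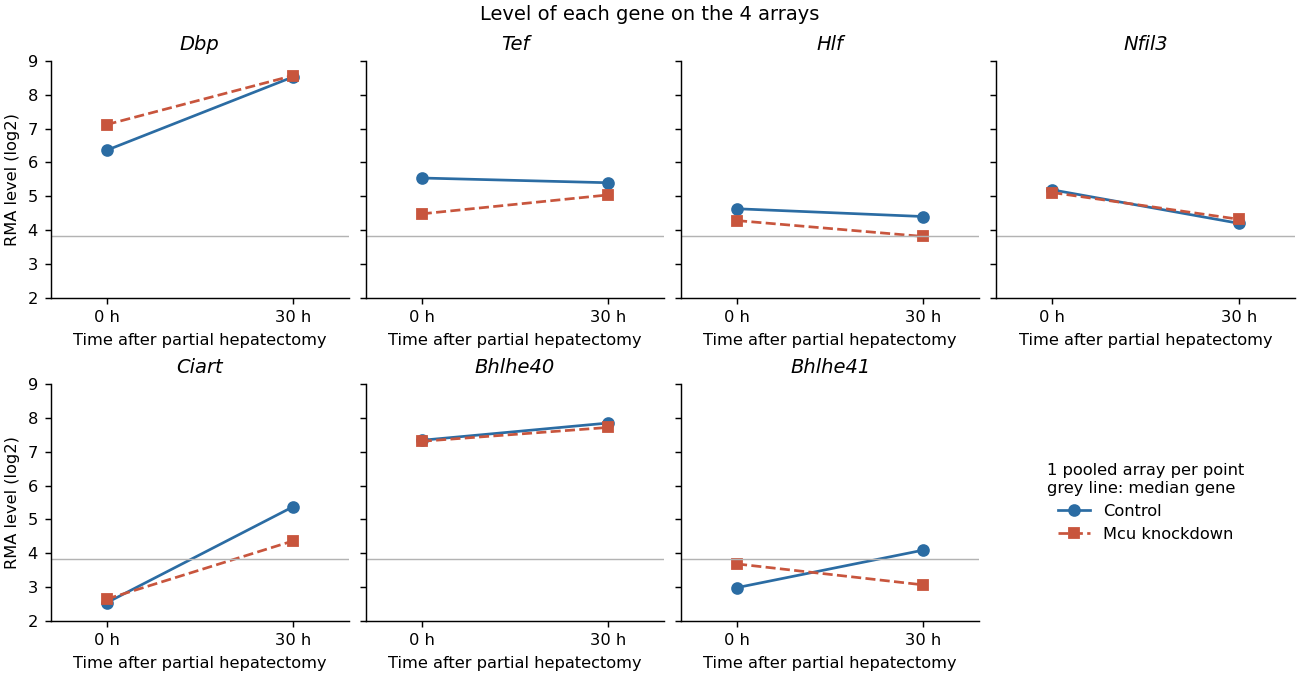
RMA level (log2) of each of the 7 genes at 0 h and 30 h after partial hepatectomy, with circles for control liver and squares for Mcu knockdown liver, 1 pooled array per point and a grey line at the level of the median gene (3.83). Dbp and Ciart are higher at 30 h in both genotypes, Nfil3 is lower in both, and the lines of Bhlhe41 cross.

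Among the PAR bZIP activators, Dbp was much the most different between times. It read 6.36 in control liver at 0 h, 8.53 in control liver at 30 h, 7.12 in knockdown liver at 0 h and 8.57 in knockdown liver at 30 h. Both 30 h arrays thus lay above both 0 h arrays, and they were nearly equal to each other. The difference with time was 2.17 in control liver (4.5-fold, rank 95 from the highest of 19505 genes) and 1.45 in knockdown liver (2.73-fold, rank 162). The response of the knockdown was smaller (-0.72), and the gap lay in the 0 h arrays, where the knockdown was higher by 0.76 (1.69-fold). At 30 h the genotypes differed by 0.04, and this sign turned to -0.02 when each array was centred on its median. It was 0.16 after quantile normalization and 0.21 after cyclic loess. The difference of responses shrank to -0.53 and -0.44 under the same settings.

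Tef, whose factor also activates through the D-box, was separated by genotype more than by time, with its lowest value in knockdown liver at 0 h. Its levels were 5.54 in control liver at 0 h, 5.40 in control liver at 30 h, 4.48 in knockdown liver at 0 h and 5.04 in knockdown liver at 30 h. Both knockdown arrays were below both control arrays. The knockdown was lower by 1.06 on the log2 scale at 0 h (-1.06, 2.08-fold lower, rank 177 from the lowest) and differed by -0.36 at 30 h. The differences with time were -0.14 in control liver and 0.56 in knockdown liver, neither 2-fold.

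Hlf, the remaining PAR bZIP gene, was at 4.63 and 4.40 in control liver at 0 h and 30 h, and at 4.28 and 3.81 in the knockdown. Both knockdown arrays were again below both control arrays, by -0.35 at 0 h and -0.59 at 30 h (1.51-fold lower). No difference of Hlf reached 2-fold, and with time it was lower by less in control liver (-0.23) than in the knockdown (-0.47). The PAR bZIP genes thus had no common direction with time: Dbp was higher at 30 h in both genotypes, Hlf was lower in both, and Tef differed in sign.

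Nfil3, the repressor that competes with the PAR bZIP factors for the D-box, was lower at 30 h in both genotypes. It read 5.19 at 0 h and 4.20 at 30 h in control liver, and 5.11 at 0 h and 4.32 at 30 h in knockdown liver. Both 30 h arrays were below both 0 h arrays, and the genotypes were close at each time. The difference was -0.99 in control liver (1.99-fold lower, rank 434 from the lowest) and -0.79 in the knockdown (1.73-fold lower, rank 870). The control value stood just short of 2-fold, and passed it after quantile normalization (-1.03) and cyclic loess (-1.02). Between genotypes Nfil3 differed by -0.08 at 0 h and 0.12 at 30 h. Dbp and Nfil3, an activator and a repressor with the same DNA element, therefore differed in opposite directions with time on both pairs of arrays.

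Ciart had the largest difference with time of the 7 genes in both genotypes. It read 2.53 in control liver at 0 h, 5.37 in control liver at 30 h, 2.64 in knockdown liver at 0 h and 4.36 in knockdown liver at 30 h. The 0 h values were near the dim end of their arrays, at percentiles 21.4 and 24.8, and both 30 h arrays were far above them. The difference was 2.84 in control liver (7.16-fold, rank 39 from the highest) and 1.72 in knockdown liver (3.29-fold, rank 80). Since the 0 h values are dim, the size of these folds is uncertain. The genotypes were alike at 0 h (0.11), and at 30 h the knockdown was 2.01-fold lower (-1.01, rank 345 from the lowest). This genotype difference stood at the 2-fold line and was -0.96 after quantile normalization. The 3 CACGTG matches printed above belong to this gene, and their part in these levels was not tested.

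The DEC genes differed from each other in layout. Bhlhe40, which encodes DEC1, was bright and nearly flat, with 7.34 and 7.85 in control liver at 0 h and 30 h and 7.31 and 7.72 in the knockdown. Both 30 h arrays were above both 0 h arrays, by 0.51 in control liver and 0.41 in the knockdown, short of 1.5-fold. The genotypes differed by -0.03 at 0 h and by -0.13 at 30 h, the last turning to 0.05 after quantile normalization and 0.04 after cyclic loess.

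Bhlhe41, which encodes DEC2, had responses of opposite sign, as did Tef, and the gap between them was the widest of the 7 genes. Its levels were 2.98 in control liver at 0 h, 4.09 in control liver at 30 h, 3.68 in knockdown liver at 0 h and 3.06 in knockdown liver at 30 h. It was thus highest in control liver at 30 h and lowest in control liver at 0 h, with the knockdown arrays between them in the reverse order of time. The difference with time was 1.11 in control liver (2.16-fold higher, rank 611 from the highest) and -0.62 in knockdown liver (1.54-fold lower). Only the 30 h control value lay above the level of the median gene, and among dim genes 2.4% were at least 2-fold higher at 30 h in control liver.

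**Figure D3:**
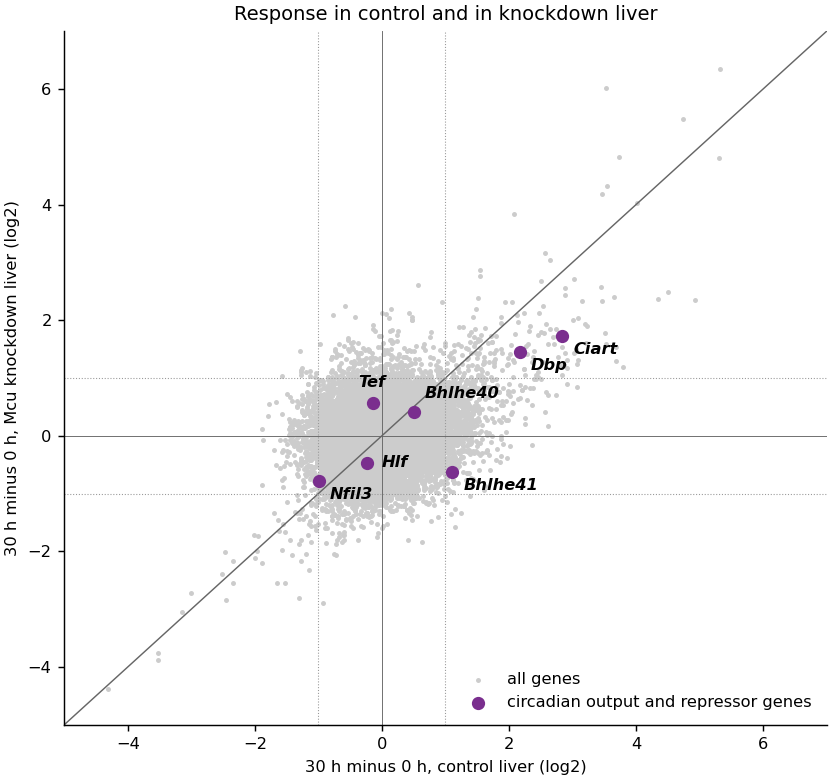
Difference between 30 h and 0 h (log2) in control liver on the horizontal axis and in Mcu knockdown liver on the vertical axis for all 19505 genes (grey) and the 7 circadian output and repressor genes (purple), with the line of equal response and dotted lines at 2-fold. Ciart and Dbp lie in the upper right below the line of equality, Nfil3 in the lower left near it, and Bhlhe41 in the lower right.

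Between genotypes at 0 h, Tef was the gene of the 7 that was at least 2-fold lower in the knockdown, and none was 2-fold higher. This was 1 of 7 genes against 2.7% of all genes either way, 1.45% higher and 1.25% lower, and among bright genes 0.635% were at least 2-fold lower. Dbp (0.76) and Bhlhe41 (0.70) were higher by less than 2-fold, and the median of the 7 was -0.03 beside 0.01 for all genes. Between genotypes at 30 h, Ciart (-1.01) and Bhlhe41 (-1.03, 2.04-fold lower) were at least 2-fold lower in the knockdown. This was 2 of 7 genes against 3.93% of all genes either way, 2.07% higher and 1.86% lower, and against 1.56% of dim genes lower. Both genes just passed the line and both are dim. The median of the 7 was -0.36, beside 0.00 for all genes and -0.11 for bright genes, and 5 of the 7 were lower. That count depends on the processing. Bhlhe40 (-0.13) turned above 0 after quantile normalization (0.05) and cyclic loess (0.04), and Dbp (0.04) turned below 0 after median centring (-0.02).

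**Figure D4:**
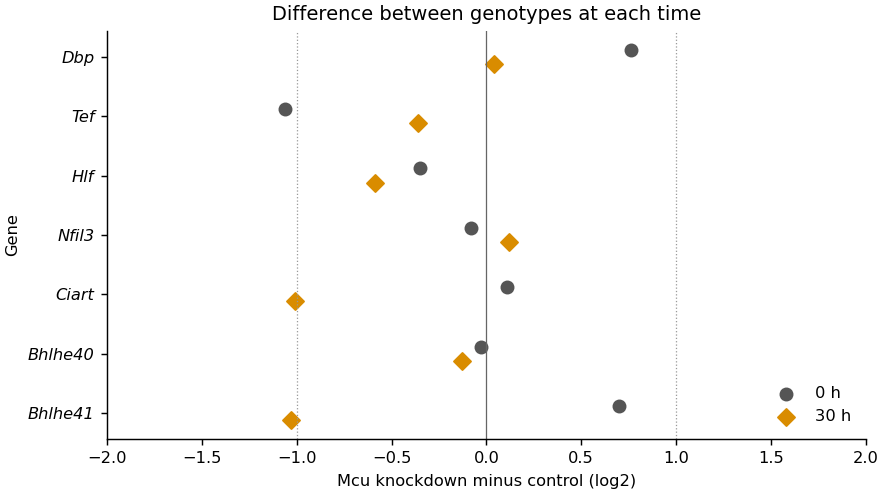
Mcu knockdown minus control (log2) for each of the 7 genes at 0 h (circles) and 30 h (diamonds), 1 pooled array per group, with dotted lines at 2-fold. Tef at 0 h and Ciart and Bhlhe41 at 30 h are beyond the line on the lower side, and Tef, Hlf and, by little, Bhlhe40 are below 0 at both times, Bhlhe40 at 30 h turning above 0 after quantile normalization or cyclic loess.

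The response of the knockdown minus that of the control uses all 4 arrays, and so is not independent of the comparisons above. It was at least 2-fold lower for Bhlhe41 (-1.73, rank 108 from the lowest of 19505 genes) and Ciart (-1.12, rank 767), 2 of 7 genes. In this comparison 11.8% of all genes were 2-fold different either way, 6.0% higher and 5.82% lower. It was -0.72 for Dbp, -0.24 for Hlf and -0.10 for Bhlhe40, the last turning to 0.18 after quantile normalization or cyclic loess. It was 0.20 for Nfil3 and 0.70 for Tef. The median of the 7 was -0.24, close to that of bright genes, -0.18, while that of all genes was -0.02.

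The core clock loop around these genes was described by 11 genes. In control liver 1 of the 11 was at least 2-fold higher at 30 h and 2 were 2-fold lower, and in knockdown liver none was 2-fold higher and 3 were 2-fold lower. Of all genes, 4.19% were higher and 2.22% lower in control liver, and 2.72% and 2.01% in the knockdown. The same shares stand beside the counts with time in the lists that follow. Arntl, which encodes the activator BMAL1, read 4.68 at 0 h and 2.66 at 30 h in control liver and 4.66 and 2.95 in the knockdown, lower by -2.02 and -1.71. Nr1d1, which encodes the repressor REV-ERB alpha, was lower too, by -1.20 and -1.39. Per1, a period gene of the repressor arm, was higher by 1.56 in control liver and 0.97 in the knockdown. Clock, which encodes the partner of BMAL1, differed by 0.37 in control liver and -1.07 in the knockdown, and at 30 h by -1.08 between genotypes. At 0 h no gene of the loop was 2-fold different between genotypes, where 2.7% of all genes were. The layout of Arntl, with both 30 h arrays below both 0 h arrays, was that of Nfil3 and the opposite of that of Dbp and Ciart. Medians of the loop were 0.37 in control liver and -0.12 in the knockdown. Bright genes as a whole had medians of 0.1 and -0.04, and all genes -0.01 and 0.01, so part of that drop was common to bright genes.

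Of the kinases, ubiquitin ligase adaptors and partners of clock proteins, 10 of 11 listed genes were measured. The clock-controlled ubiquitin protease Usp2 was higher at 30 h by 2.89 in control liver and 1.44 in the knockdown, and Timeless, better known for replication fork protection, by 1.60 and 1.29. The other 8 were not 2-fold different with time in either genotype. Csnk1d, a kinase of the period proteins, differed by 0.70 in control liver and -0.43 in the knockdown.

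Genes that PAR bZIP factors or NFIL3 are reported to control were split. Of 17 measured of 18 listed, 4 were at least 2-fold higher at 30 h and 1 was lower in control liver, and 2 were higher and 1 lower in the knockdown. Medians were 0.23 and 0.05, beside 0.1 and -0.04 for bright genes. Alas1, the first enzyme of heme synthesis, read 7.85 and 10.08 in control liver and 8.0 and 10.12 in the knockdown, higher by 2.23 and 2.12. Cyp2b10, a drug-metabolising cytochrome P450, was higher by 1.52 and 1.42. The carboxylesterase Ces3a was lower by -1.37 and -1.32. These 3 genes differed with time by nearly equal amounts in both genotypes. Abcb1a, a drug efflux pump, did not: it read 2.27 and 4.64 in control liver but 2.77 and 2.61 in the knockdown, and at 30 h the knockdown was lower by -2.03. Abcb1a was dim (mean 3.07), and only its 30 h control value lay above the level of the median gene, so this contrast rests on 1 array. Cyp2a4 and Cyp2a5, near-identical cytochrome P450 genes whose probes may not separate them, differed by 1.41 and 0.94 in control liver and by 0.31 and -0.32 in the knockdown. At 0 h none of the 17 was 2-fold different between genotypes, against 2.7% of all genes.

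Of 12 other rhythmic liver genes driven by the clock, 3 were at least 2-fold higher and 1 was 2-fold lower at 30 h in control liver, and the counts in the knockdown were equal. The genes were Usp2, Wee1, the mitotic inhibitor kinase (2.54 and 2.25), Noct, the clock-controlled phosphatase nocturnin (2.13 and 2.09), and on the lower side the fatty acid elongase Elovl3 (-3.15 and -3.05). Wee1 and Noct were therefore higher at 30 h by about as much in the knockdown as in control liver, while Usp2, like Ciart, was higher by less. Medians were 0.64 in control liver and 0.16 in the knockdown, beside 0.1 and -0.04 for bright genes.

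**Figure D5:**
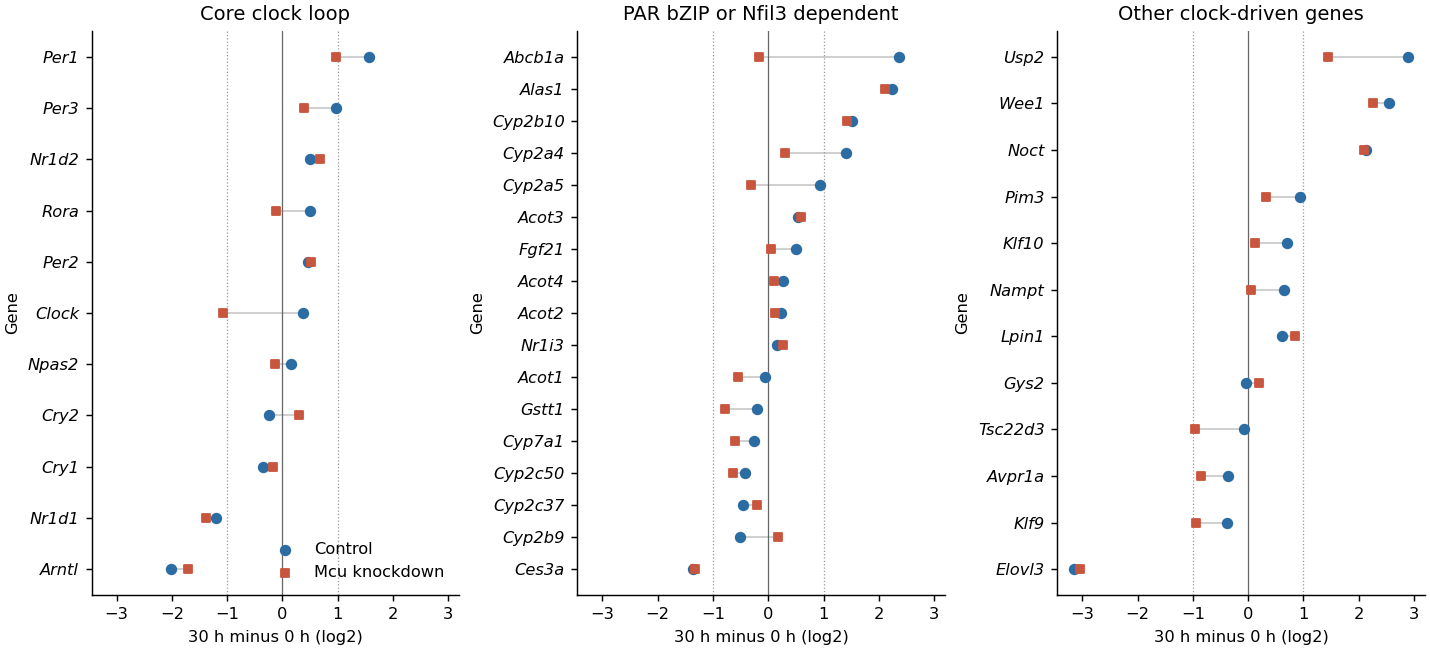
Difference between 30 h and 0 h (log2) in control liver (circles) and Mcu knockdown liver (squares) for genes of the core clock loop, genes reported to depend on PAR bZIP factors or NFIL3, and other clock-driven genes, with dotted lines at 2-fold. Arntl, Nr1d1, Ces3a and Elovl3 are lower and Alas1, Cyp2b10, Wee1, Noct and Usp2 higher by at least 2-fold in both genotypes. Abcb1a (dim), Usp2 and Clock have the widest gaps between genotypes.

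Glucocorticoids and low oxygen are known to act on some of these genes, and genes responsive to them were listed for that reason. Of 12 glucocorticoid-responsive genes, 2 were at least 2-fold higher at 30 h in control liver, Fkbp5 (1.77) and Per1, and 1 in the knockdown, Fkbp5 (1.21), with medians of 0.24 and -0.02. Of 12 hypoxia-responsive genes, 3 were at least 2-fold higher and 1 was lower in control liver, and 1 was higher and 1 lower in the knockdown, with medians of 0.08 and 0.24. Egln3, an oxygen-sensing hydroxylase, was higher by 1.48 and 1.15, and Pdk1, a kinase that restrains pyruvate dehydrogenase, was lower by -1.29 and -1.34. Bright genes as a whole had medians of 0.1 in control liver and -0.04 in the knockdown. The part of either signal in the levels of the 7 genes was not tested.

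Nfil3, Bhlhe40 and Bhlhe41 are also expressed by immune cells. Kupffer cell markers, all 7 measured, had summed linear levels of 253 in control liver at 0 h, 481 in control liver at 30 h, 344 in knockdown liver at 0 h and 389 in knockdown liver at 30 h. With time, 6 of the 7 were higher and none lower in control liver (median 0.42), while 3 were higher and 4 lower in the knockdown (median -0.36). Bright genes as a whole had medians of 0.1 and -0.04. The median log2 levels of the Kupffer cell markers were 4.85, 5.97, 5.70 and 5.34 on the arrays in the same order. On each array this median was the value of Vsig4, which ranked the 4 arrays as Bhlhe41 did. No other marker of the list ranked them so, and the summed levels placed knockdown liver at 30 h above knockdown liver at 0 h. Neutrophil markers (5 of 6 measured) summed to between 38.0 and 51.4, T and NK cell markers (6 of 6) to between 35.9 and 41.4, and B cell markers (3 of 4) to between 20.3 and 27.5, and no measured marker of these 3 lists was bright. Sinusoidal endothelial markers (5 of 5) summed to 269 and 299 at 0 h in control and knockdown liver and to 181 and 178 at 30 h. Stellate cell markers (5 of 5) summed to between 805 and 880, and cholangiocyte markers (4 of 5) to between 53.3 and 65.8. RMA gives no value of 0, so no marker is at 0. Hepatocyte markers summed to between 22600 and 23700. The part of these cells in the levels of the 7 genes was not tested.

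The genes with the most similar layouts over the 4 arrays were sought among 9450 bright genes for the 4 genes that spanned at least 1 on the log2 scale, by the Euclidean distance between values centred on their mean. With only 4 arrays such likeness is easily met, and it is a description. Nearest to Dbp was Tgm2, tissue transglutaminase (distance 0.09), with 5.89 and 8.11 in control liver and 6.58 and 8.07 in the knockdown, followed by Fkbp5 (0.38), Mad2l1 (0.38), Rcan1 (0.39) and Hat1 (0.39). Nearest to Ciart was Orm3, an orosomucoid (0.07), followed by the histone genes H2ac10 (0.30) and H2ac11 (0.31), the helicase subunit Mcm2 (0.32) and the condensin subunit Smc4 (0.34). Mcm2 read 3.31 and 6.54 in control liver and 3.61 and 5.51 in the knockdown. Nearest to Tef were Kbtbd2 (0.05), Abl1 (0.10), Bmpr1a (0.11), Tmem62 (0.13) and Fam167b (0.17). Nearest to Bhlhe41 were Tmem18 (0.09), Fmr1 (0.09), Fgd6 (0.10), Frk (0.11) and Bcl2l1 (0.12). None of these 20 genes is a gene of the core clock loop. Only 8 loop genes were bright and so among the 9450 searched, and Arntl, Per3 and Npas2 were not, so this absence says little.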

How the data were processed

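Liver RNA of 4 groups was measured on 4 arrays, 1 per group, each treated as 1 pooled sample and grouped by its title. The authors deposited log2 levels per probe set. They used RMA and Affymetrix Expression Console, according to the submitters' processing notes, with versions and parameters not given in the sources. RMA is meant to equalise the arrays, which hides any shift common to all genes. The deposited arrays were not fully alike, with medians from 3.75 to 3.84. Quantile normalization still moved some values, such as the Dbp response in control liver from 2.17 to 1.92. The precision is limited by the number of arrays.

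Of 22206 probe sets, 19572 carried 1 gene symbol, 0 carried several and 2634 were unnamed; 55 of 19505 genes had several and took the brightest by mean. Log2 differences were taken for 5 comparisons with Python 3.11.15 and pandas 2.3.3, and counted at 2-fold (1.5-fold and 3-fold as alternatives). No test was run. Median centring, quantile normalization and cyclic loess (limma 3.58.1), the mean of probe sets and bright genes only were further alternatives. The difference and count steps were tested on simulated data. Genes were named by rule: the 7 factors, up to 4 genes per list and comparison past 2-fold, and the 5 nearest layouts; Mcu served to check the labels. The 7 genes and the lists were chosen with earlier results of these data known. RefSeq stretches on GRCm38.p6 were read by symbol, without the 50 bases after the start site. The genotype label of the knockdown arrays differs from the treatment protocol and is not reported here; groups follow the titles.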

Additional observations from a re-analysis of the deposited data

Results flagged for a closer look

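Among the 7 factors and the gene lists, 15 genes met a rule with 2 parts. The knockdown response minus the control response was at least 2-fold, and the genotype effect or the response changed sign between the groups. The genes with the nearest layouts were not screened, and some of them, such as Fmr1 (-1.83) near Bhlhe41 and Mcm2 (-1.33) near Ciart, met it too. With 1 array per group these differences were not tested. Among the 7 factors these were Bhlhe41 (-1.73; response 1.11 in control and -0.62 in knockdown liver) and Ciart (-1.12; genotype difference 0.11 at 0 h and -1.01 at 30 h). Among clock and clock-driven genes they were Abcb1a (-2.53), Usp2 (-1.45), Clock (-1.44), Cyp2a5 (-1.26), Csnk1d (-1.13) and Cyp2a4 (-1.10). Among the glucocorticoid and hypoxia lists they were Slc2a1 (-1.20) and Sgk1 (-1.01). Among cell type markers they were the T and NK cell marker Nkg7 (-1.64), the stellate cell marker Des (-1.5), and the Kupffer cell markers Vsig4 (-1.48), Adgre1 (-1.07) and Marco (-1.03). All 15 values were negative, and Abcb1a, Nkg7, Des, Bhlhe41 and Ciart were dim. In that comparison 5.82% of all genes were at least 2-fold lower and 6.0% higher, with 7.43% lower and 3.24% higher among bright genes and 4.22% lower and 8.77% higher among dim genes.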

How the results depend on the processing

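The 35 log2 differences of the 7 genes moved by at most 0.28 under median centring, quantile normalization, cyclic loess and the mean of probe sets. Of 140 alternative values, 132 kept both their direction and their side of 2-fold. That includes the 35 values from the mean of probe sets, which could not move because each of the 7 genes had 1 probe set. In 5 others a small value of Dbp or Bhlhe40 changed sign, as stated above, and 3 crossed 2-fold: Nfil3 in control liver, past 2-fold after quantile normalization and cyclic loess, and Ciart between genotypes at 30 h, short of it after quantile normalization. Among bright genes only, the count past 2-fold was 1 in place of 3 in control liver, 1 in place of 2 in knockdown liver, and 0 in place of 2 between genotypes at 30 h and for the difference of responses. At 1.5-fold it was 4 in knockdown liver, 3 between genotypes at 0 h and 4 for the difference of responses. At 3-fold these were 1, 0 and 1, and 0 between genotypes at 30 h. The shares of all genes at 1.5-fold and at 3-fold were not counted, so these counts have no background to be read against. After quantile normalization the count between genotypes at 30 h was 1. The counts rest on dim genes or on values near the line for all but Dbp and, by size, the response of Ciart. No paired analysis was possible because each group had 1 array. Leaving out a replicate was not possible for the same reason.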
